A study of Homo sapiens with 6 samples.

Results

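The genes described here handle choline and its conversion to phosphatidylcholine, and they were followed in Meg-01 cells, an established megakaryoblastic leukaemia cell line, with and without propionate (C3), a short-chain fatty acid of gut bacteria. They are 10 of the 58735 genes in the count table, namely the choline transporter-like genes SLC44A1, SLC44A2 and SLC44A3, the choline kinases CHKA and CHKB, PCYT1A, CHPT1, CEPT1, PEMT and LPCAT1, found by gene symbol. The set was chosen by the measured rise of SLC44A2 after C3 treatment in these libraries. The values of SLC44A2 are therefore given without a test, and counts over the 10 genes are descriptive. RNA was sequenced from 3 libraries of untreated control cells and 3 libraries of cells given 500 µM sodium propionate for 48 h according to the labels, and the methods also name a shorter incubation. The figure legend of the study calls such libraries technical replicates, so p-values measure the spread between libraries, which need not include that between independent cultures. All 6 libraries come from a single leukaemic line, and the labels name no engineered allele.

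Cells take up choline through transporters of the SLC44 family and phosphorylate it by choline kinase. PCYT1A, a transferase of cytidyl groups, turns phosphocholine into CDP-choline, the step that usually limits the rate of this route, and CHPT1 or CEPT1 joins it to diacylglycerol to give phosphatidylcholine, the main phospholipid of cell membranes. PEMT makes phosphatidylcholine by methylating phosphatidylethanolamine and is best known from the liver, and LPCAT1 adds a fatty acid back to lysophosphatidylcholine. Megakaryocytes build an extensive internal membrane system from which platelets are formed.

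Library totals were between 16159449 and 22821722 counts. The second principal component, with 17.4% of the variance, separated control replicate 3 from its group and likewise C3 replicate 1 from the other C3 libraries. Of 12 megakaryoblast markers 10 were measured well enough to be tested, whereas PF4 and GP1BB were at 0 in every library. Their summed level was 1307 to 1453 TPM (counts scaled by gene length and library) in control libraries and 1442 to 1456 in C3 libraries. TPM values are not corrected for RNA composition and ran higher in C3 cells (median log2 ratio 0.13 over tested genes). No change between the groups is therefore read from the summed TPM of any marker list here. None of the 10 was a DEG by edgeR, but their changes lay on both sides of 0. NFE2 had a log2 fold change of -0.38 (adjusted p = 1.89e-04 by edgeR) and ITGB3 of 0.34 (adjusted p = 0.033 by edgeR). The groups did not overlap for NFE2, TAL1 (-0.090) and RUNX1 (-0.13), which were lower, or for ITGB3 and SELP (0.15), which were higher. Over all tested genes, 34.4% had groups without overlap in either direction. NFE2 missed the fold change gate defined below only narrowly, at -0.3779 with the gate at 0.3785 in either direction. Summed markers of other cell types reached 5.33 TPM for T cells, 11.1 for B cells and 1.63 for fibroblasts, with MS4A1 at 0 and COL1A1 a differentially expressed gene (DEG, as defined below) with higher expression. COL1A1 had raw counts of 6, 5 and 2 in control and of 12, 11 and 34 in C3 libraries. It passed the count filter given below only through the C3 libraries, so its call is a description. The 4 monocyte markers summed to 68.4 to 70.1 TPM in control and 51.2 to 57.4 in C3 libraries, most of it LYZ, a DEG with lower expression, with CD163 at 0. The 4 epithelial markers summed to 124 to 139 and 115 to 123 TPM, most of it KRT18. KRT18 was lower without overlap of the groups (log2 fold change -0.34, adjusted p = 0.00145 by edgeR) but was no DEG. The part of these markers in the results below was not tested, and in bulk RNA a change in the share of cells cannot be told apart from a change of RNA per cell.

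SLC44A2 and PEMT were the members furthest from no change, in opposite directions, and the bases in front of their first RefSeq start sites are therefore shown (RefSeq, GRCh38.p14, 5′ to 3′ on the strand of the gene, 250 bases each). Capitals mark GC boxes, written GGGCGG on either strand.
SLC44A2, forward strand, chr19:10602205-10602454: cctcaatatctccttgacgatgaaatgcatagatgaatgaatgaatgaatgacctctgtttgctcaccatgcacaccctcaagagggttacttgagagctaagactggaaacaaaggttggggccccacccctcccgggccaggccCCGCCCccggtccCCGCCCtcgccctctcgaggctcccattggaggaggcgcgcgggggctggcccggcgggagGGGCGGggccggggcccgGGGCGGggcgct
PEMT, reverse strand, chr17:17591709-17591958: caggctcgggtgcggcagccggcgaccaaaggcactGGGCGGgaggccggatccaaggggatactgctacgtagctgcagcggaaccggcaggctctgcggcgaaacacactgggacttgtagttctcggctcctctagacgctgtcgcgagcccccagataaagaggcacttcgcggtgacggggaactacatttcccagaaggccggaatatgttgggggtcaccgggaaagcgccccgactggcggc
The SLC44A2 stretch held 4 GC boxes and 1 CCAAT box (CCAAT on either strand), with a GC content of 65.6%. The PEMT stretch held 1 GC box and no CCAAT box, with a GC content of 64.4%. It lies just outside the annotated PEMT gene, and all of it is in exon bases annotated to other genes, whose strand was not examined. Over all 35116 RefSeq stretches of this length, 42.6% held a GC box and 32.0% a CCAAT box, so neither feature is rare. Neither stretch held a TATA box (TATAAA, found in 10.7%) or an E-box (CACGTG, found in 6.34%). RefSeq lists a second start for SLC44A2 further downstream, where the preceding 250 bases held 3 GC boxes and none of the other motifs. It lists 2 further starts for PEMT, at chr17:17582447-17582696, where the stretch held none of the 4 motifs, and at chr17:17577497-17577746, where it held 2 GC boxes and 1 E-box, whose letters read the same on both strands. Counts per gene do not tell transcripts from these starts apart.

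Counts were scaled with edgeR's TMM factors to a common effective library size (normalized counts), and the 15078 genes that reached 10 counts in 3 or more libraries were compared by the quasi-likelihood test of edgeR and Benjamini-Hochberg adjustment over all of them. DEGs had to pass the gates of the study, adjusted p below 0.01 together with a change of more than 1.3-fold, or 0.38 on the log2 scale. Of the 10 members 8 passed the count filter. Among these, 1 was a DEG with higher expression after C3 treatment (SLC44A2, chosen for it) and 0 were DEGs with lower expression by edgeR, DESeq2 or limma-voom, and at an unadjusted p-value below 0.05 from edgeR's test 1 member (PEMT) was lower, which is 12.5% of 8 against 15.3% of all tested genes. Over all tested genes 5.05% were higher and 1.47% lower DEGs, 6.52% in either direction. The median log2 fold change of the 8 members was 0.059, against 0.0021 over all tested genes.

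SLC44A2 was chosen for its rise, so its difference from the other transporter genes is a description. Positions are those of whole genes in GRCh38. SLC44A1 (ENSG00000070214, chr9:105244622-105439171, forward strand) encodes a widely expressed choline transporter of the plasma membrane and mitochondria. It had normalized counts of 2444, 2590 and 2695 in control replicates 1 to 3. After C3 treatment it had 2603, 2725 and 2704, within or just above the control range. Its log2 fold change was 0.056 (standard error 0.062, 95% interval -0.071 to 0.18), and edgeR gave adjusted p = 0.58. SLC44A2 (ENSG00000129353, chr19:10602457-10644557, forward strand) encodes a choline transporter-like protein that also carries a neutrophil alloantigen. It had 954, 991 and 1058 normalized counts in control cells. After C3 treatment it had 1895, 1774 and 1725. All C3 libraries were the higher ones and the groups did not overlap, as the choice of the gene implies. The log2 fold change of SLC44A2 was 0.84 (standard error 0.067). Within each library, the log2 ratio of SLC44A2 to SLC44A1 counts does not depend on any scaling between libraries. This ratio was -1.36 ± 0.019 without and -0.57 ± 0.10 with C3 (SD over 3 libraries). SLC44A3 (ENSG00000143036, chr1:94820342-94895246, forward strand), a less studied member of the family, had only 8, 5 and 11 raw counts in control and 2, 10 and 9 in C3 libraries. With 24 and 21 counts in all, SLC44A3 did not pass the count filter and was not tested, so no difference between the groups is read from it.

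**Figure D1:**
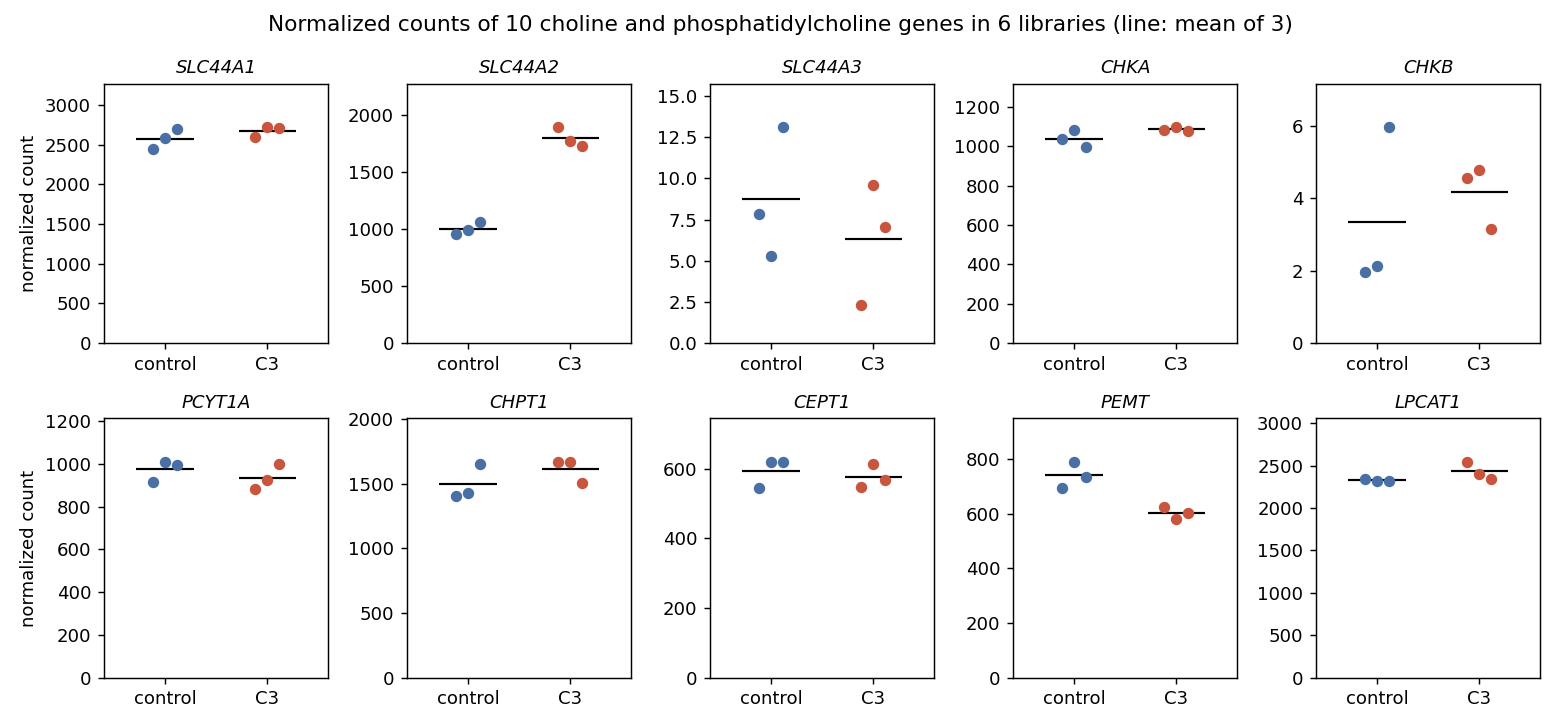
Normalized counts (vertical axis, each panel on its own linear scale from 0) of the 10 genes in 3 control libraries (blue) and 3 C3 libraries (red), with a line at the mean of each group. SLC44A2 lies at 954 to 1058 in control and at 1725 to 1895 in C3 libraries, PEMT is lower in all C3 libraries, and SLC44A3 and CHKB rest on a few counts.

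CHKA (ENSG00000110721, chr11:68052859-68121444, reverse strand), a choline kinase gene for the first step of the CDP-choline route, had normalized counts of 1039, 1084 and 997 in control and of 1085, 1100 and 1077 in C3 libraries, and the groups overlapped. Its log2 fold change was 0.063 (standard error 0.067, interval -0.074 to 0.20), and edgeR gave adjusted p = 0.56. CHKB (ENSG00000100288, chr22:50578959-50601455, reverse strand), the second choline kinase gene, had raw counts of 2, 2 and 5 in control and of 4, 5 and 4 in C3 libraries and was not tested. Of its annotated exon bases 72.5% are shared on the same strand with the readthrough gene CHKB-CPT1B, which had 1 or 2 counts per library. Reads on shared bases cannot be assigned to either gene, so these counts do not give the level of CHKB, and no balance between the kinase genes is read from them. The ratio of SLC44A1 to SLC44A3, which rests on the few counts of SLC44A3, was 8.30 ± 0.63 and 8.96 ± 1.06 on the log2 scale (SD, n = 3 each, two-sided exact permutation p = 0.5). The difference of 0.67 was 0.068 without C3 replicate 1 and 1.07 without C3 replicate 2.

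For the enzymes that follow in the route, no difference beyond the spread between libraries was found. PCYT1A (ENSG00000161217, chr3:196214222-196287957, reverse strand) had normalized counts of 917, 1011 and 996 in control and of 883, 925 and 999 in C3 libraries. Its log2 fold change was -0.055 (standard error 0.071, interval -0.20 to 0.092), and edgeR gave adjusted p = 0.65. CHPT1 (ENSG00000111666, chr12:101696947-101744140, forward strand), a cholinephosphotransferase, had 1408, 1428 and 1650 in control and 1671, 1672 and 1503 in C3 libraries. Control replicate 3 was the highest of its group and C3 replicate 3 the lowest of its own, so the groups overlapped. The log2 fold change of CHPT1 was 0.11 (standard error 0.071, interval -0.034 to 0.26), and edgeR gave adjusted p = 0.30. With each library left out, it lay between 0.080 (without control replicate 2) and 0.19 (without control replicate 3, adjusted p = 0.069 by edgeR). CEPT1 (ENSG00000134255, chr1:111139479-111185104, forward strand), which accepts both CDP-choline and CDP-ethanolamine, had 544, 620 and 620 in control and 549, 613 and 568 in C3 libraries. Its log2 fold change was -0.042 (standard error 0.081, interval -0.21 to 0.12), and edgeR gave adjusted p = 0.77. Within libraries, the log2 ratio of CEPT1 to CHPT1 counts was -1.33 ± 0.11 without and -1.49 ± 0.11 with C3 (SD over 3 libraries). The difference of -0.16 gave p = 0.2 in a two-sided exact permutation test, and 0.5 after adjustment over the 3 ratios tested (that of CHKA to CHKB included). With each library left out, this difference lay between -0.20 (without control replicate 3) and -0.093 (without control replicate 2). With 3 libraries in each group, p cannot go below 0.1. CHPT1 shares 9.45% of its exon bases with SYCP3 on the opposite strand, which had at most 7 counts in a library. CEPT1 shares 4.78% with DRAM2 (log2 fold change -0.058, adjusted p = 0.66 by edgeR), and the strand setting of the counting is not given in the sources used here.

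PEMT (ENSG00000133027, chr17:17505563-17591708, reverse strand), the enzyme of the route that needs no CDP-choline, was lower after C3 treatment. It had normalized counts of 696, 791 and 734 in control libraries and of 626, 582 and 601 in C3 libraries. Every C3 value was below every control value. The log2 fold change was -0.30 (standard error 0.076, interval -0.45 to -0.14), which is 0.814 times the control level, and edgeR gave adjusted p = 0.0066. PEMT thus passed the p-value gate but not the fold change gate and was no DEG. The adjusted p-value from edgeR's test was 0.074 without control replicate 2, 0.038 without C3 replicate 3, 0.033 without C3 replicate 2, 0.015 without control replicate 3, 0.012 without control replicate 1 and 0.0041 without C3 replicate 1, and the log2 fold change stayed between -0.33 and -0.24. With DESeq2 the adjusted p-value was 0.011, and with library size alone it was 0.045 by edgeR. The antisense gene ENSG00000264666 shares 10.3% of the exon bases of PEMT and was at 0 in every library. A second antisense gene, ENSG00000286430, shares 6.51% and was not analysed here, so its reads, if any, cannot be told apart from those of PEMT.

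LPCAT1 (ENSG00000153395, chr5:1456480-1523962, reverse strand) had normalized counts of 2342, 2320 and 2316 in control and of 2546, 2402 and 2343 in C3 libraries. Every C3 value exceeded every control value, the closest pair by about 1 normalized count. Its log2 fold change was 0.062 (standard error 0.061, interval -0.064 to 0.19), and edgeR gave adjusted p = 0.53. Groups without overlap were thus found for SLC44A2 and LPCAT1 (higher) and for PEMT (lower). Over all tested genes, 17.5% had such groups in the higher and 16.9% in the lower direction, 34.4% together, so these counts do not set the members apart. For SLC44A1, CHKA, PCYT1A, CHPT1, CEPT1 and LPCAT1, the 95% interval of the log2 fold change lay between -0.21 and 0.26, inside the gate of 0.38 in either direction.

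**Figure D2:**
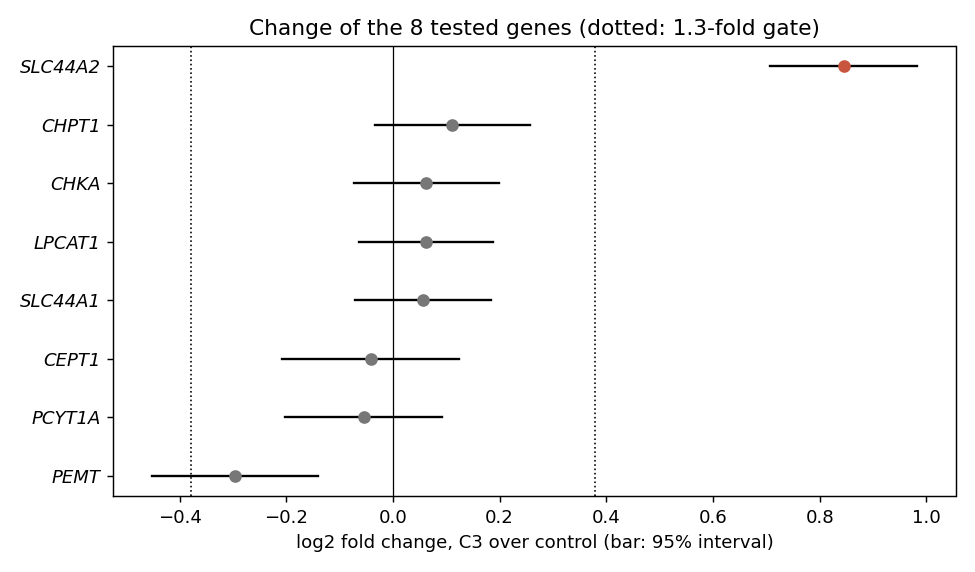
Log2 fold change of C3 over control cells (horizontal axis) for the 8 tested genes, with 95% intervals from edgeR's fit as bars and the 1.3-fold gate as dotted lines. SLC44A2, at 0.84 and in red, is the only DEG and was chosen for this rise, so its bar and colour are a description and no test. PEMT lies at -0.30, and the intervals of the other 6 genes include 0 and stay within the gate.

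The level of each gene relative to the others was read from TPM, computed from the counts and the merged exon length of each gene in GENCODE release 44. TPM values are not corrected for RNA composition, and their median over tested genes was 0.13 higher on the log2 scale in C3 than in control cells, so only the order within a group is described. In control cells PEMT was the highest (79.5 ± 5.14 TPM, SD, n = 3 libraries, as for all levels here), followed by LPCAT1 with 66.4 ± 2.67. CHKA (49.6 ± 3.35) and CHPT1 (46.1 ± 2.6) followed and overlapped each other. SLC44A1 (38.4 ± 0.66) and SLC44A2 (37.3 ± 0.64) overlapped as well, so the 2 transporters stood at about the same level in untreated cells. PCYT1A (22.6 ± 0.85) and CEPT1 (12.7 ± 0.67) were the lowest of the clearly expressed members. SLC44A3 (0.56 ± 0.24) and CHKB (0.21 ± 0.14) rest on 11 or fewer raw counts per library, those of CHKB with the shared bases named above. In C3 cells, LPCAT1 (75.8 ± 0.79), SLC44A2 (73.3 ± 0.94) and PEMT (70.8 ± 1.47) were the highest, SLC44A2 and PEMT overlapping, and SLC44A1 stood at 43.7 ± 2.82. SLC44A2 thus moved from rank 6 to rank 2 of the 10 genes, and its share of their summed TPM was between 10.3% and 10.9% in control and between 17.4% and 18.3% in C3 libraries. This shift contains the rise that chose SLC44A2 and is a description.

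**Figure D3:**
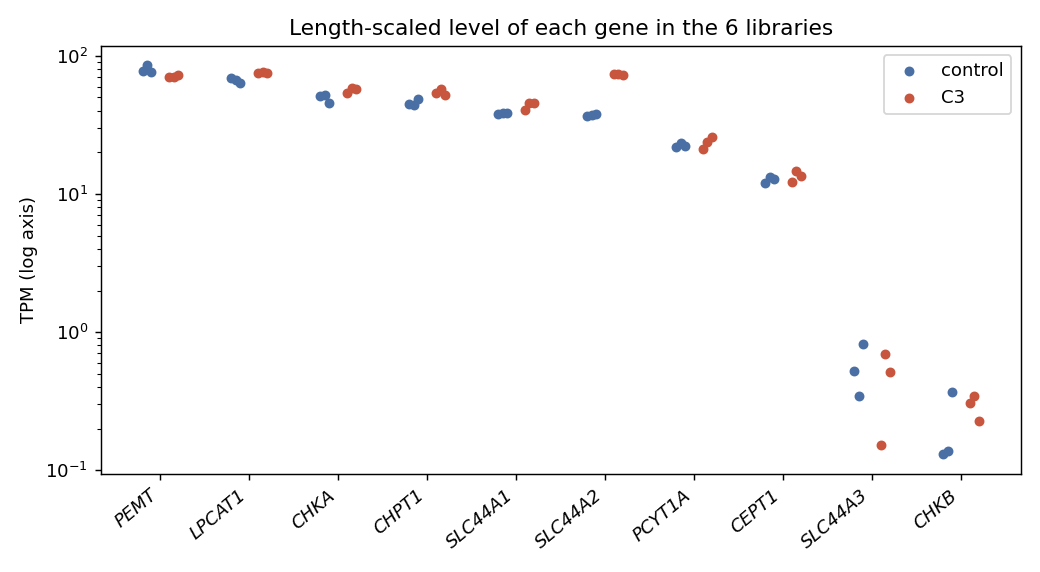
Length-scaled level in TPM (vertical log axis) of each gene in the 3 control (blue) and 3 C3 (red) libraries, ordered by the mean in control cells. SLC44A2 overlaps SLC44A1 in control cells (37.3 and 38.4 TPM) and lies with PEMT and LPCAT1 in C3 cells, while SLC44A3 and CHKB stay below 1 TPM.

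The genes closest to SLC44A2 in their pattern were sought among tested genes whose normalized counts averaged 50 or more, as the smallest root mean square difference in log2 CPM centred on each gene's mean over the 6 libraries. They were PDE9A, a phosphodiesterase of cyclic GMP (difference 0.053), SASH3, a signalling adaptor of lymphocytes (0.060), and RCOR2, a corepressor of the CoREST family (0.063). PDE9A had mean normalized counts of 451 in control and 826 in C3 cells, SASH3 148 and 268, and RCOR2 174 and 295. The search follows the difference between the groups that chose SLC44A2, so it carries no test. No gene of choline or phospholipid metabolism was among these 3.

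Genes around the pathway were taken from 10 lists written from general knowledge, with 75 genes, none of them a member and 57 of them tested. Of these, 2 were DEGs with higher expression after C3 treatment, 3.51% against 5.05% of all tested genes. By edgeR 0 were DEGs with lower expression, against 1.47%, also by DESeq2 and limma-voom, and at an unadjusted p-value below 0.05 from edgeR's test 12 were higher (21.1% against 16.8% of all tested genes) and 7 lower (12.3% against 15.3%). The median log2 fold change was -5.7e-04, with 28 positive and 29 negative values. The shares lay near those of all tested genes, on either side, and their differences were not tested.

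Both DEGs stood in the list named for the breakdown of phosphatidylcholine, with 12 tested genes. Of these, 16.7% were thus higher and 0 lower DEGs, against 5.05% and 1.47% of all tested genes. With 2 genes and no test of the list, nothing is read from this share. PHOSPHO1 is a phosphatase of phosphocholine, not of phosphatidylcholine itself. It had normalized counts of 7.84, 20.1 and 10.7 in control and of 36.4, 39.2 and 37.6 in C3 libraries. The groups were separate, at a low level. Raw counts were 8, 19 and 9 in control and 32, 41 and 48 in C3 libraries. PHOSPHO1 thus passed the count filter through the C3 libraries, where it is high, and its p-values and call are a description. The difference on the log2 scale was 1.55 with a standard error of 0.34, and edgeR gave adjusted p = 0.0018. The adjusted p-value passed the gate no longer without control replicate 1 (0.017) or control replicate 3 (0.011). PLD2, a phospholipase D that releases choline from phosphatidylcholine, had 198, 191 and 203 in control and 279, 267 and 257 in C3 libraries. The difference on the log2 scale was 0.44 with a standard error of 0.11, and edgeR gave adjusted p = 0.0047. It lost its call with DESeq2 (0.018) and without control replicate 1 (0.017), control replicate 2 (0.031), C3 replicate 2 (0.014) or C3 replicate 3 (0.015).

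The other lists held no DEG by edgeR. Of the other choline transporters only FLVCR1 and FLVCR2 passed the count filter, and FLVCR1 had the smaller p-value (log2 fold change 0.10, adjusted p = 0.51 by edgeR). SLC5A7, the high-affinity transporter of cholinergic neurons, SLC22A2 and the acetylcholine-forming CHAT had 0 counts in all 6 libraries, which allows up to 3 counts or 0.0269 CPM (counts scaled to library size) over them. PCYT1B, the second gene for the step of PCYT1A, had the smallest p-value of the CDP-ethanolamine list (log2 fold change 0.47, standard error 0.14, adjusted p = 0.015 by edgeR). It became a DEG under 4 alternatives, with library size alone and without a count filter among them. The others were the replicate block (adjusted p = 0.0047 by edgeR) and leaving out control replicate 3 (0.61, adjusted p = 0.0056 by edgeR). Without control replicate 2, the adjusted p-value of PCYT1B was 0.13 by edgeR. The 3 genes of the phosphatidylserine route had log2 fold changes below 0, with the smallest p-value for PISD (-0.16, adjusted p = 0.11 by edgeR). Among 8 acyltransferases, MBOAT1 had the smallest p-value (-0.33, adjusted p = 0.075 by edgeR). Among 12 genes of diacylglycerol supply it was AGPAT1 (-0.25, adjusted p = 0.012 by edgeR), which shares 30.3% of its exon bases with the antisense gene PPT2-EGFL8. Of 3 genes of choline oxidation it was ALDH7A1 (0.27, adjusted p = 0.069 by edgeR). With each library left out, the log2 fold change of ALDH7A1 lay between 0.155 (without C3 replicate 1) and 0.344 (without C3 replicate 3).

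The methylation step of PEMT draws on S-adenosylmethionine. Of 6 genes around this methyl donor, AHCYL1, a relative of the hydrolase AHCY that also binds the inositol trisphosphate receptor, had the smallest p-value. Its normalized counts were 2831, 2808 and 2949 in control and 3516, 3257 and 3330 in C3 libraries, without overlap. The difference on the log2 scale was 0.23 with a standard error of 0.061, below the fold change gate, and edgeR gave adjusted p = 0.0078. The adjusted p-value by edgeR was 0.063 without control replicate 2, 0.024 without control replicate 1, 0.032 without C3 replicate 3 and 0.0101 without C3 replicate 2. AHCY, which hydrolyses the S-adenosylhomocysteine that methylation leaves, had a log2 fold change of -0.24 (adjusted p = 0.015 by edgeR, named after its values were seen), with overlapping groups. Of 6 genes of sphingomyelin synthesis and phosphatidylcholine transfer, SGMS2, a sphingomyelin synthase, had the smallest p-value (1.28, standard error 0.44, adjusted p = 0.038 by edgeR). It rests on 3, 17 and 7 raw counts in control and 26, 21 and 28 in C3 libraries. SGMS2 thus passed the count filter through the C3 libraries, where it is high, and its p-values are a description. It was a DEG without control replicate 2 (log2 fold change 2.10), with 0.82 without control replicate 1. At an adjusted p-value below 0.05 without a fold change gate, 6 of the 57 related genes were higher and 4 lower, or 10.5% and 7.02%, close to the 11.0% and 8.77% of all tested genes (19.8% in either direction). Besides those already named, these were PLA2G4A (0.31), PLA2G15 (-0.34) and STARD7 (-0.18), named after their values were seen.

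**Figure D4:**
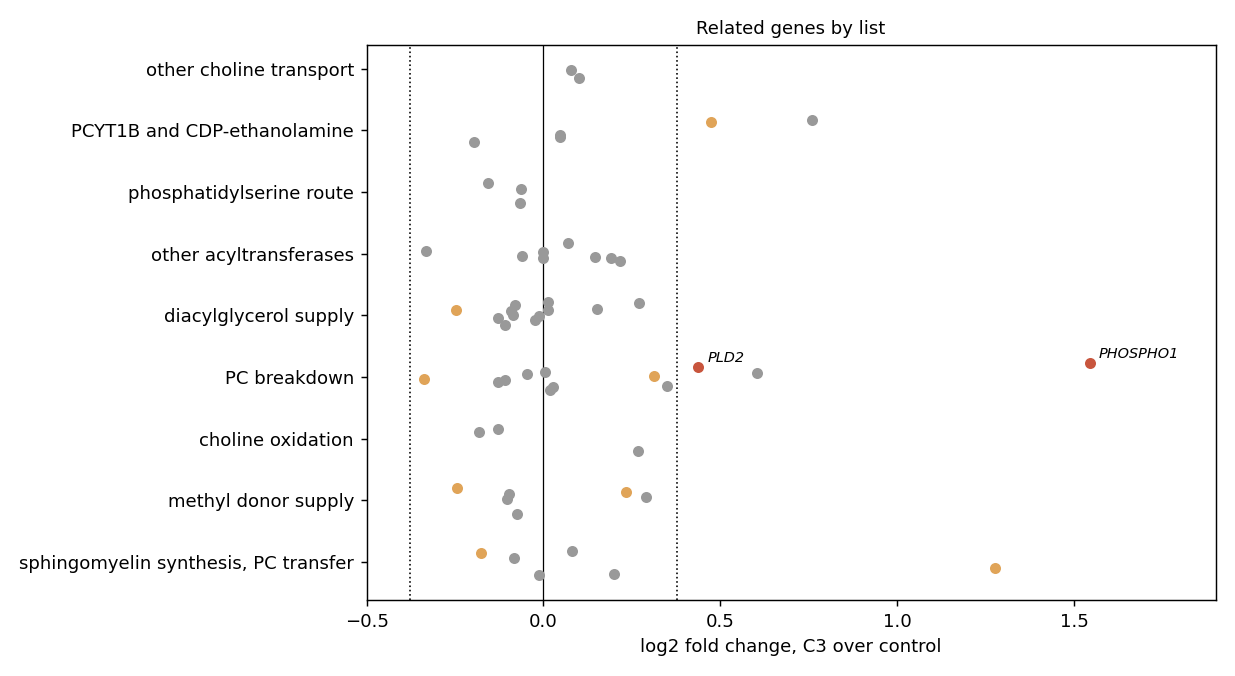
Log2 fold change of C3 over control cells (horizontal axis) for the 57 tested related genes by list (rows), with DEGs in red, genes with an adjusted p-value below 0.05 only in orange, the rest in grey and the 1.3-fold gate as dotted lines. The DEGs PHOSPHO1 (1.55) and PLD2 (0.44) lie in the list of phosphatidylcholine (PC) breakdown, most other genes lie within the gate, and the list of acetylcholine synthesis had no tested gene.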

How the data were processed

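RNA of Meg-01 cells was sequenced in 3 control and 3 C3 libraries. Per the submitters' processing notes, the authors used fastp, STAR (2.6.1d, genome GRCh38/hg38) and featureCounts (1.5.0-p3). The deposited values are raw counts per Ensembl gene without normalization. For the annotation release and the strandedness of counting: not given in the sources used here. Columns were matched to the labels by treatment and replicate number, and 58207 of 58735 identifiers were found in GENCODE release 44 (GRCh38).

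Genes that reached 10 counts in 3 or more libraries were tested with edgeR 4.0.16 (R 4.3.3, TMM factors, quasi-likelihood test, Benjamini-Hochberg adjustment, no replicate block). The standard error was taken as the absolute log2 fold change over the root of the F statistic, and 95% intervals use the t quantile of the fit. Ratios were tested by exact permutation. Pairs of libraries in a group differed beyond sampling noise (chi-square per degree of freedom at least 2.37), so each counted as a library of its own. The fits with edgeR, DESeq2 and limma-voom were tested on simulated counts.

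The members, lists and tests were chosen with earlier results of these data known. Named were all members, all related DEGs, the smallest p-value of each list and the 3 genes most like SLC44A2. Also named were genes sharing exon bases with these, FLVCR2 and, of the related genes at 0 counts, SLC5A7, SLC22A2 and CHAT. GPAT2 and BHMT2 were at 0 as well. Other exceptions are marked. Alternatives were DESeq2 1.42.0, limma-voom (limma 3.58.1), RLE factors, scaling by library size alone, testing without a count filter or only above a mean count of 50, a replicate block, each library left out, other gates, a pseudocount of 1 for ratios and the longest transcript for TPM.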

Additional observations from a re-analysis of the deposited data

How the results depend on the processing

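The log2 fold change of SLC44A2, chosen on these libraries, was 0.81 to 0.92 over 13 alternative fits, which is a description. No other member passed both gates in any of them. PCYT1A and CEPT1 turned to 0.021 and 0.034 with library size alone, both far from the gates. Without the fold change gate, PEMT counted as 1 lower member at an adjusted p-value below 0.01 or 0.05. The number of related genes called higher, 2 in the report, was 3 with library size alone, without a count filter, with the replicate block or at an adjusted p-value below 0.01 without a fold change gate. It was 1 with DESeq2, 1 with a mean count of at least 50, 0 to 2 with each library left out and 6 at an adjusted p-value below 0.05 without a fold change gate, where 4 were lower. The 0 came without control replicate 1, and 1 without C3 replicate 2 or C3 replicate 3. With the length of the longest transcript, SLC44A1 (32.8 TPM) and SLC44A2 (35.3 TPM) changed places in control cells.

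The replicate numbers did not pair the libraries. Deviations from the group means correlated across genes by 0.021, -0.047 and 0.030 for numbers 1 to 3, and not every library correlated best with its own number. With the replicate number as a block, 1 member and 3 related genes were higher DEGs and 0 of either were lower. The paired difference of the log2 ratio of CEPT1 to CHPT1 was -0.16 (exact sign-flip permutation p = 0.5, where 3 pairs allow no less than 0.25). Depth limits SLC44A3 and low genes such as PHOSPHO1 and SGMS2. CHKB is limited by few counts and by exon bases shared with CHKB-CPT1B.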
